A study of Mus musculus with 2 samples.

Results

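AP-1 is a family of paired transcription factors, typically a Fos protein with a Jun protein. Many of its genes belong to the immediate-early class that cells switch on within minutes of a signal. The group described here has 10 genes: Fos, Fosb, Fosl1, Jun, Junb, Jund, Atf3, Egr1, Ier2 and Ier3. They were taken by name, as every probe set whose platform annotation gives 1 of these genes and no other, which found 13 of the 34945 single-gene probe sets on the array and 10 of its 18193 genes. A probe set is a group of short probes that together read 1 transcript.

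Expression was measured on 2 Affymetrix arrays, 1 for each of 2 cultures of ICR mouse lung epithelium taken at embryonic day 11. Both cultures were grown in Matrigel, a basement membrane gel, with the growth factor FGF10 and with CHIR99021 for 4 days, then fragmented, embedded again and kept in FGF10 for 2 days, 1 with CHIR99021 and 1 without it. CHIR99021 blocks the kinase GSK3, which leaves beta-catenin stable and keeps the canonical Wnt pathway active, so the comparison sets its continued presence against its withdrawal. With 1 array per condition there is no measure of spread between cultures and no test, every value is a single measurement, and "higher" and "lower" below describe these arrays only.

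Receptor signals reach the immediate-early genes through the MAP kinases ERK, JNK and p38, which act on factors already present in the nucleus, such as SRF with its ternary complex partners and CREB. The messenger RNAs are short-lived, so their level follows recent signalling. FGF10, the bud-forming signal of the lung, acts through a receptor that feeds the ERK branch. GSK3 is known to phosphorylate the Jun and Myc proteins and to shorten their life, but the arrays read RNA and not protein.

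Promoters of 3 members are shown because their genes gave the 3 log2 ratios farthest from the median gene among the members: Fos and Ier3 were the lowest and Jun was the highest. Each line gives the 180 bases just before the gene's start, from RefSeq on build GRCm38.p6 and read on the gene's own strand. Fos lies at chr12:85473710-85473889 on the plus strand, Jun at chr4:95052223-95052402 on the minus strand and Ier3 at chr17:35821533-35821712 on the plus strand. Capitals mark the motif matches named in the next paragraph.
Fos: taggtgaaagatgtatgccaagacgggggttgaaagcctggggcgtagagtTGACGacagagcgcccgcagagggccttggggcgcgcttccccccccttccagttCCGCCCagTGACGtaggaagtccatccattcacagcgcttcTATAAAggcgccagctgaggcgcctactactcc
Jun: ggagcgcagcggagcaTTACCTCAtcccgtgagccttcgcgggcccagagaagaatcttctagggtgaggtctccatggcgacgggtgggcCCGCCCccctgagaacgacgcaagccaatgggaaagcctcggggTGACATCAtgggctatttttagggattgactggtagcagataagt
Ier3: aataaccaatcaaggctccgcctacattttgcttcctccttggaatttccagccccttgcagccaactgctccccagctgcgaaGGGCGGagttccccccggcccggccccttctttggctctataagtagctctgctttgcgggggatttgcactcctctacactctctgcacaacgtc

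Windows of 250 bases before the start were searched on both strands for 7 of the 10 members, all those matched in the promoter table, and for all 32851 windows in it. The CRE core TGACG, the centre of the sequence that CREB and ATF proteins recognise, was in the windows of Fos, Fosb, Junb and Atf3, which is 4 of 7 against 17.8% of all windows. In Fos it began 129 and 66 bases before the start. The Jun window held neither that core nor the TPA response element TGANTCA, the standard AP-1 sequence, which no member window held and 6.75% of all windows did. It held the pair of variant sites known from the Jun gene, TTACCTCA from 164 bases and TGACATCA from 45 bases before the start, found in 0.728% and 2.93% of all windows. The GC box GGGCGG was in 5 of 7 (Fos, Fosb, Jun, Atf3 and Ier3) against 32.7% of all windows, and it was the sole match in Ier3, from 96 bases. The TATA box TATAAA was in 1 of 7, that of Fos from 33 bases, against 12.4%. The CArG box bound by SRF, the TCF/LEF site CTTTGAT and the full CRE TGACGTCA were in 0 of 7 and in 1.47%, 3.21% and 1.55% of all windows. The CRE core is part of the full CRE, and the SRF site known from the Fos gene lies farther upstream than this window. These are matches of letters in a short window and say nothing about binding.

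On the authors' scale, Ier3 and Fos were about 7-fold lower with CHIR99021, Atf3 and Junb about 2-fold lower, Jund, Egr1 and Ier2 lower by less than 2-fold, and Jun was the sole measured member with a higher signal. The values are MAS5 signals in arbitrary units. A floor for background was set on each array from 80 probe sets of olfactory and vomeronasal receptor genes. It was 19.2 without and 12.7 with CHIR99021. A gene counts as measured when its brightest probe set is above the floor on at least 1 array. By this rule 8 of the 10 members were measured, and each of the 8 was above the floor on both arrays, so no ratio among them is a bound. Of the 8, 4 were at least 2-fold lower with CHIR99021 and 0 at least 2-fold higher. Over all 12917 measured genes, 18.4% were at least 2-fold lower and 1.90% at least 2-fold higher. The median log2 ratio, with over without CHIR99021, was -0.99 for the members and -0.42 for all measured genes.

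**Figure D1:**
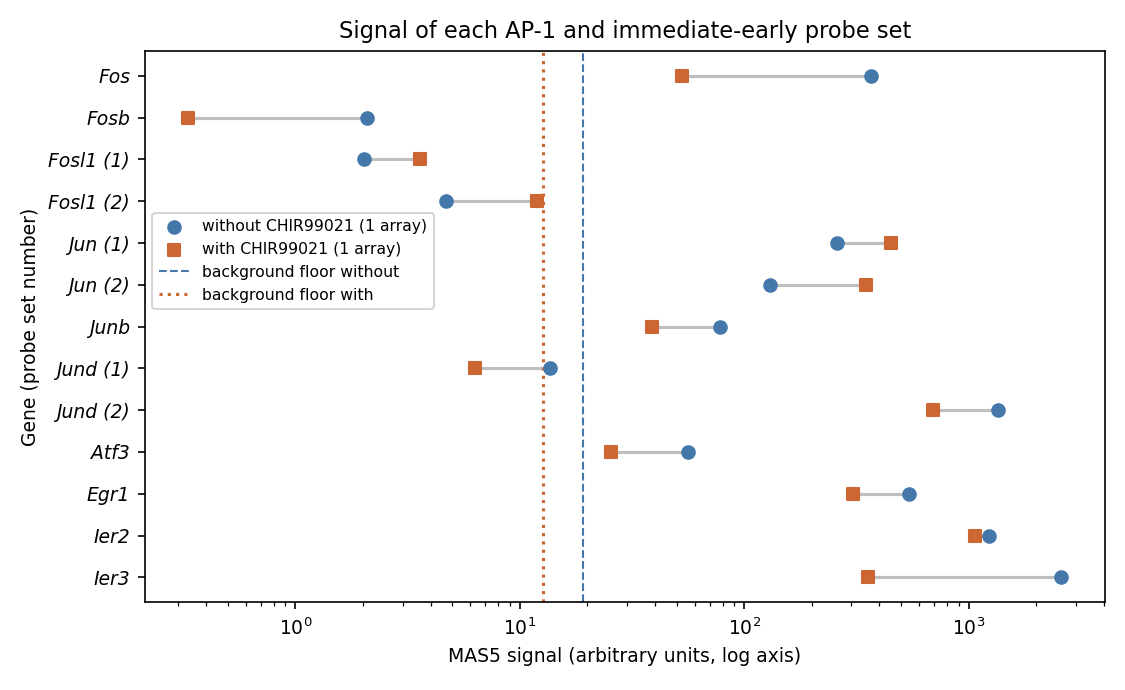
MAS5 signal (x axis, log scale) of the 13 probe sets of the 10 genes (y axis) on the array without CHIR99021 (circles) and with it (squares), with a grey line joining the 2 values of a probe set and vertical lines at the background floors of 19.2 and 12.7. Fos and Ier3 have the longest lines toward lower signal among probe sets above the floor, both Jun probe sets run the other way, and those of Fosb and Fosl1 are below the floor.

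Among the Fos proteins, which cannot pair with themselves and need a Jun partner, Fos is the classical fast-induced member. Its MAS5 signal was 368 for the culture lacking CHIR99021 and 53.0 for the other, a log2 ratio of -2.80 or 6.95-fold lower. The lower value was still 4.16 times the floor. Only 1.18% of measured genes had a lower ratio. Fosb, a close relative of Fos, was below the floor on both arrays, with signals of 2.08 and 0.333. Fosl1, the Fra-1 protein known for a slower and longer response, was below it by both of its probe sets, at 4.70 without and 11.9 with CHIR99021 for the brighter one and 2.02 and 3.59 for the other. No direction is read for Fosb and Fosl1, since signals under the floor are not told apart from background.

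Of the 3 Jun genes, Jun was higher with CHIR99021, and Junb and Jund were lower. Jun, the strongest activator among them and a partner of Fos, had 259.8 in the culture without CHIR99021 and 449 in that with it, a log2 ratio of 0.79 or 1.73-fold higher. Its other probe set, annotated to the same RefSeq transcript, had 131 and 349, which is a log2 ratio of 1.42 or 2.67-fold higher. The probe sets had the same direction on either side of the 2-fold threshold, and 3.12% of measured genes had a higher ratio than the brighter one. Junb, a weaker activator that can oppose Jun at many promoters, had 78.3 and 38.7, a log2 ratio of -1.02. Jund, the member that resting cells express steadily, had 1354 and 692, a log2 ratio of -0.97. Junb and Jund thus sit just inside and just outside the 2-fold threshold, with nearly equal ratios. The other Jund probe set was below the floor on both arrays, at 13.7 and 6.32.

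Atf3, a stress-induced factor that pairs with Jun proteins and often represses, had 56.0 without and 25.5 with CHIR99021, a log2 ratio of -1.13. Both values were close to background, at 2.92 and 2.01 times the floor. Egr1, a zinc-finger factor induced by ERK through SRF, had 542 and 304, a log2 ratio of -0.83 and so within 2-fold. Lower ratios than that of Egr1 were seen for 25.1% of measured genes. Ier2, a small nuclear protein of the same early class, had 1225 and 1068, a log2 ratio of -0.20, which was 0.23 above the median gene. Ier3, an early gene that acts on cell survival and on ERK signalling, had 2578 without and 355 with CHIR99021, a log2 ratio of -2.86 with 1.12% of measured genes lower. Atf3, Egr1, Ier2 and Ier3 were each read by 1 probe set, as were Fos, Fosb and Junb.

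**Figure D2:**
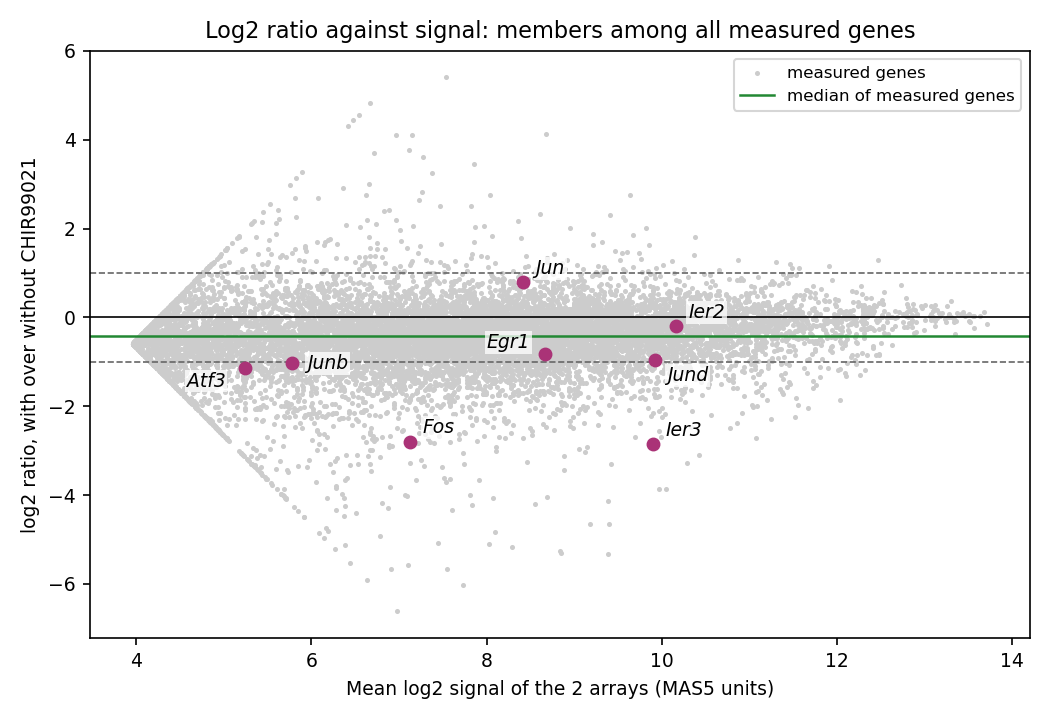
Log2 ratio of each measured gene (y axis, with over without CHIR99021) against its mean log2 signal on the 2 arrays (x axis), with values under the floor raised to it, the 8 measured members in purple, dashed lines at 2-fold and a green line at the median of -0.42. Fos at -2.80 and Ier3 at -2.86 lie low in the cloud, Jun at 0.79 lies at its upper side, and the other 5 lie within the bulk of the genes.

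From Ier3 to Jun the members spanned 3.65 log2 units. A difference between 2 log2 ratios is unaffected by any constant factor between the arrays. The ratio of Jun was 3.59 log2 units above that of Fos, so that Jun relative to Fos was 12.0-fold higher with CHIR99021 than without it. Over the 5 scalings described below this was between 11.3-fold and 12.0-fold. That range holds for the brighter Jun probe set only. The other Jun probe set, with a log2 ratio of 1.42 instead of 0.79, would make the differences from Jun larger. Jun relative to Jund was 3.38-fold higher and relative to Junb 3.50-fold higher, and Ier2 relative to Ier3 was 6.33-fold higher. Egr1 relative to Fos, both textbook targets of ERK and SRF, was 3.90-fold higher, whereas Fos and Ier3 differed by 0.06 log2 units. The cause of these differences was not tested. These compare changes, not levels, since signals of different probe sets have no common scale.

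The yardstick at hand for such differences is the spread between probe sets of 1 gene. Over 5335 genes read by several probe sets that exceeded both floors, their log2 ratios had an SD of 0.557, equal to 1.47-fold. It measures probes and not cultures. On the authors' scale the log2 ratios of 7 of the 8 measured members, all but Ier2, were farther from 0 than this SD, but there the median gene itself lay at -0.42. The share of all measured genes past this SD was not computed. At the nearby 1.5-fold threshold 38.7% of them were lower and 5.05% higher on that scale, against 6 and 1 of the 8 members. After median centring, quantile normalization and loess, the scalings described next, 4 of 8 were farther from 0 than the SD. When scaled on the hybridization controls 7 of 8 were, with the median gene still at -0.27. Fos, Ier3 and Jun were among them each time.

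Of the 11356 genes that exceeded both floors, 76.4% had the lower signal with CHIR99021, and the count of members depends on how the arrays are brought to a common scale. Shifting every log2 ratio by 0.48 to centre the median probe set left 2 of 8 members lower and 1 higher, where 7.44% and 5.91% of all measured genes were lower and higher. Quantile normalization also gave 2 and 1, against 6.42% and 7.39%. After loess, which removes the dependence of the ratio on signal, the members again counted 2 and 1, against 7.29% and 6.03%. Scaling on the 18 bacterial hybridization controls gave 2 and 0, against 14.0% and 2.63%. The lower members were Fos and Ier3 under each of the 4, and the higher one was Jun under the 3 that had one. Fos ranged from -2.80 to -2.20 over the authors' scale and these 4, and Ier3 from -2.86 to -2.38, while Jun ranged from 0.79 to 1.30. Junb and Atf3 were not past 2-fold in any of the 4, and Ier2 was above 0 in 3 of them, with 0.28 after median centring.

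**Figure D3:**
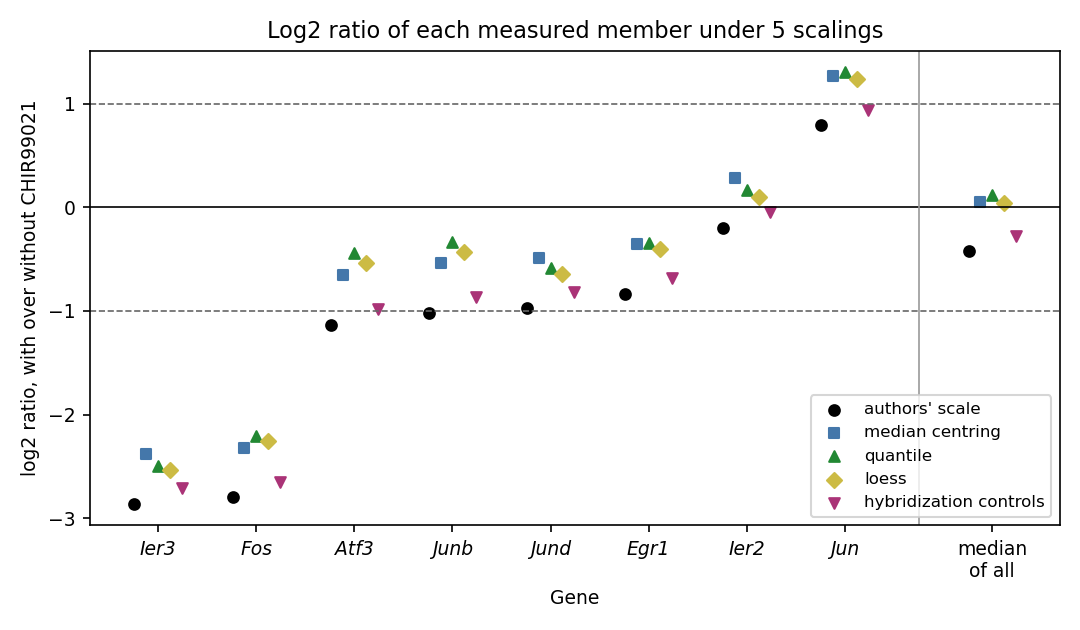
Log2 ratio (y axis, with over without CHIR99021) of the 8 measured members and, at the right, the median of all measured genes, under the authors' scale and 4 other scalings (symbols), with dashed lines at 2-fold. Fos and Ier3 stay beyond 2-fold lower under all 5, Jun passes 2-fold higher under 3, and Ier2 changes sign.

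Other measures differed between the arrays as well. The 3' to 5' signal ratio of the control probe sets was 1.29 without and 3.18 with CHIR99021 for beta-actin and 0.737 and 1.62 for Gapdh, so the array with CHIR99021 read the 3' ends of these transcripts more strongly. Of 7 epithelial markers 6 were above the floor on both arrays, with a summed signal of 33643 and 22579, and over the list 3 were at least 2-fold lower and 1 higher. Epcam had 3846 and 3743, Sftpc 8808 and 8500 and Cdh1 6414 and 3574, all within 2-fold. Krt8, at 7715 and 3151, and Krt18, at 6738 and 2834, were lower, and Sox9 was higher at 70.1 and 771. The third lower one was Nkx2-1, which defines lung epithelium, read at 52.0 without CHIR99021 and at 5.84, under the floor, with it. Of 8 mesenchymal markers 5 were above the floor on both arrays, with a summed signal over the list of 430.2 and 371 (same probe sets on both arrays), and Acta2 had 199 and 194. Measured markers numbered 1 of 5 for endothelium, 2 of 4 for blood, 1 of 3 for neural cells and 2 of 4 for mesothelium. Among these Msln, a mesothelial surface protein, was at 471 without and 4.84, under the floor, with CHIR99021. Lrrn4, the other measured marker of mesothelium, was at 6.36, under the floor, without CHIR99021 and at 14.8, above the floor, with it. Pecam1 and Cdh5 of endothelium, Ptprc of blood, Sox10 of glia and Wt1 and Upk3b of mesothelium were below the floor on both arrays. The part of any of this in the ratios of the members was not tested, and in whole cultures fewer cells of a type and less RNA per cell cannot be told apart.

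The lists that follow hold other genes of the pathway, and they are described by counts and medians next to those of all measured genes given above. Other partners of AP-1 were mostly within 2-fold, with 2 of 10 measured genes lower, 0 higher and a median log2 ratio of -0.58. Jdp2, a repressor that binds Jun, was 2.80-fold lower (170.3 without and 60.8 with CHIR99021), and Maf, a large Maf factor, 2.28-fold lower (719 and 315), with 5 probe sets between -1.77 and -0.94. Fosl2, the remaining Fos gene, had 679.9 and 375, within 2-fold. Among CREB and ATF factors 3 of 13 were lower and 0 higher, with a median of -0.24: Creb3l1 was 3.92-fold lower, Atf6 3.37-fold and Creb3l2 2.05-fold. After median centring 1 of 10 partners was lower and 0 higher, and 2 of 13 CREB and ATF factors were lower and 1 higher.

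Upstream components were mostly within 2-fold. Of 6 measured genes for SRF, its ternary complex partners and the Egr regulators, 2 were lower and 0 higher, with a median of -0.84. Nab2, a corepressor of Egr1 that Egr1 itself induces, was 2.16-fold lower (133 and 61.9) and Elk4, a ternary complex factor, 2.05-fold lower (812 and 397), while Srf had 203 and 137. Of 18 measured MAP kinase pathway genes 2 were lower and 0 higher, with a median of -0.54. They were Map2k1, the ERK kinase MEK1, 2.73-fold lower (777 and 285), and Mapk12, a p38 kinase, a fold of at least 2.47 lower, since its 31.5 without CHIR99021 compared with a signal under the floor. After median centring 0 of 6 and 0 of 18 were past 2-fold in either direction.

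Other immediate-early genes were mixed as well. Of 38 measured, 11 were at least 2-fold lower and 1 higher with CHIR99021, with a median log2 ratio of -0.51, and after median centring 7 were lower and 5 higher. Myc, a growth regulator, was 6.32-fold lower (263 and 41.5), Btg2, an antiproliferative gene, 5.76-fold lower (1046 and 182), Plk2, a kinase, 4.67-fold lower (2026 and 434) and Trib1, a pseudokinase, 4.54-fold lower (135 and 29.8). The higher one was Rhob, a small GTPase of endosomes, at 129 and 310.3, which is 2.40-fold. Like Egr1 and Ier2, Nr4a1, an orphan nuclear receptor (153 and 108), and Dusp1, a MAP kinase phosphatase (531 and 338), were within 2-fold. These last 2 were chosen after their values were seen.

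Genes known as targets of AP-1 were lower in 7 of 15 measured cases and higher in 0, with a median log2 ratio of -0.84, where 18.4% of all measured genes were lower. Sprr1a, an envelope protein of squamous epithelium, was 13.8-fold lower with CHIR99021 (290.2 and 21.0), Plaur, the urokinase receptor, 9.20-fold lower (461 and 50.1), Ereg, an EGF-family ligand, 6.56-fold lower (759.9 and 116), and Hmox1, a haem-degrading enzyme, 3.03-fold lower (172 and 56.9). Each of these 4 was read by 1 probe set. The collagenase Mmp13, the stromelysin Mmp3 and the cytokine Il6, which are classical AP-1 targets in fibroblasts, were below the floor on both arrays. Ccnd1, cyclin D1, which responds both to AP-1 and to Wnt signalling, had 1886 and 1359.7 by its brightest probe set, within 2-fold. Its 3 probe sets had log2 ratios between -1.09 and -0.47, so the lowest was past 2-fold. After median centring 5 of the 15 were lower and 1 was higher, where 7.44% and 5.91% of all measured genes were lower and higher. The higher one was Timp1, a protease inhibitor, at 25.9 and 42.4. The list, like the others, was chosen with earlier results of these data known, so its counts are a description only. Within it Mmp13, Mmp3, Il6, Ccnd1 and Timp1 were picked for mention after their values were seen.

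**Figure D4:**
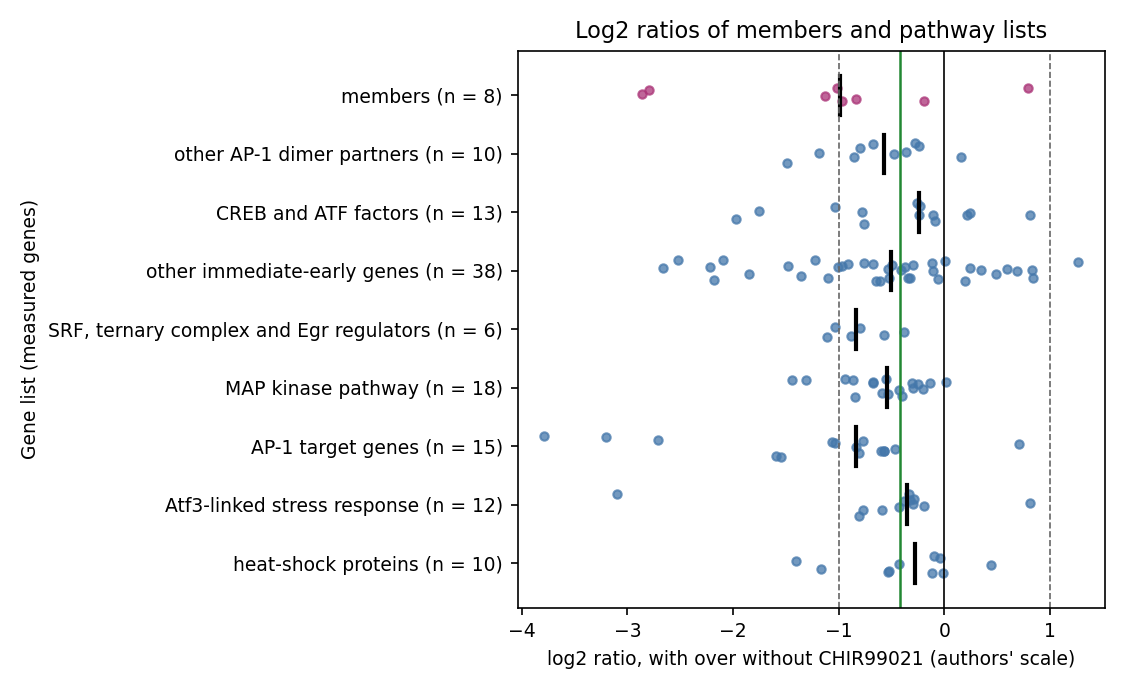
Log2 ratio on the authors' scale (x axis, with over without CHIR99021) of each measured gene (points) in the members and in 8 pathway lists (y axis, with the number of measured genes), with a black bar at each list's median, dashed lines at 2-fold and a green line at the median of all measured genes, -0.42. The members have a median of -0.99, the AP-1 targets one of -0.84 and the heat-shock proteins one of -0.28, and the members span from -2.86 to 0.79.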

How the data were processed

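Per the submitters' processing notes, the authors made the deposited values with MAS5, and they are signal intensity values per probe set on a linear scale, with version and scaling target not given in the sources used here. The cRNA came from 100 ng of total RNA, per the labels, labelled with a 3' in vitro transcription kit. MAS5 subtracts mismatch signal, so dim values scatter.

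Probe sets were named from the platform annotation, and the Entrez identifiers of all 13 member probe sets gave the same symbols in the RefSeq table of GRCm38.p6. Each gene is represented by its brightest probe set (mean of the log2 signals). The floor is the 95th percentile of 80 receptor probe sets on each array, signals under it were raised to it, and the fold threshold was 2. With 1 array per condition no test was made, and the number of arrays limits the precision. Alternatives were 4 scalings (loess span 0.4), floors at the 90th and 99th percentile or none, an offset of 16, other choices of probe set, and folds of 1.5 and 3. Members are all named. In each pathway list up to 4 genes past 2-fold with the largest change are named. Rhob was named in addition, after its value was seen, as the sole gene of its list at least 2-fold higher. Any other list gene, given as within 2-fold or under the floor, was chosen after its values were seen. The members and lists were chosen with earlier results of these data known. Python 3.11.15, numpy 2.4.6, pandas 2.3.3, statsmodels 0.14.6 and matplotlib 3.10.9 were used, and the calling step was tested on simulated data.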

Additional observations from a re-analysis of the deposited data

How the results depend on the processing

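The count of members at least 2-fold lower with CHIR99021, 4 on the authors' scale, was 2 (Fos and Ier3) under each of the 4 scalings, with an offset of 16 and no floor, and at a 3-fold threshold. It was 4 with floors at the 90th or 99th percentile, without probe sets of suffix _x_at or _s_at and with the second brightest probe set. Without a floor it was 5 (Fosb added, from signals under the floor), with the median over probe sets 5 (Jund added) and at 1.5-fold 6. The lower share of all measured genes moved as well, from 18.4% to 9.87% with the offset and 6.29% at 3-fold. Without a floor it was 25.3%, with the median over probe sets 23.6% and at 1.5-fold 38.7%. With the second brightest probe set it was 23.9%, and with the 2 other floors and without the suffixes it was between 17.7% and 19.4%. Measured members numbered 10 without a floor or with the offset, 9 with the floor at the 90th percentile and 7 with the second brightest probe set. The count of members at least 2-fold higher, 0, was 1 after median centring, quantile normalization and loess, with the median over probe sets, with the second brightest probe set and at 1.5-fold, which was Jun each time. It was also 1 without a floor, which was Fosl1, from signals under the floor. The higher share of all measured genes was 1.90% on the authors' scale, 6.67% without a floor and 5.05% at 1.5-fold. With the median over probe sets it was 1.52% and with the second brightest probe set 1.53%. The shares for the 4 scalings are given above. The members' median log2 ratio of -0.99 became -0.40 after quantile normalization and moved by less than the SD of 0.557 between probe sets of a gene under the other alternatives. Over 11 alternatives Fos stayed between -2.80 and -2.20, Ier3 between -2.86 and -2.38 and Jun between 0.75 and 1.42, each with an unchanged sign, whereas Ier2 was above 0 in 3 of them. Fos, Ier3 and Ier2 have 1 probe set each, above every floor used. Only the 4 scalings and the offset could therefore move their ratios, and the other floors could not move that of Jun. Junb at 3.04 to 4.08 times the floor and Atf3 at 2.01 to 2.92 times are the dimmest measured members. No paired analysis was possible because each condition has 1 array.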

Other observations

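Stress genes that often accompany Atf3 were mostly within 2-fold. Of 12 genes of the amino acid and unfolded protein responses, all measured, 1 was at least 2-fold lower with CHIR99021 and 0 higher, with a median log2 ratio of -0.36. The lower one was Nupr1, a small stress-induced nuclear protein, 8.55-fold lower at 246 without and 28.7 with CHIR99021, and its other probe set had a log2 ratio of -3.72. Asns, asparagine synthetase, had 390.2 and 683, a log2 ratio of 0.81 that passed 2-fold after median centring, at 1.28, and was chosen after its value was seen.

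Heat-shock proteins, which like the immediate-early genes are sensitive to the handling of tissue, were lower in 2 of 10 measured cases and higher in 0, with a median log2 ratio of -0.28 and 0 past 2-fold in either direction after median centring. Hspb1, a small chaperone, was 2.64-fold lower (321 and 121) and Hspa1b, an inducible Hsp70, 2.24-fold lower (863 and 385).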
